A study of Mus musculus with 9 samples.

Results

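The livers of mice that lived in microgravity (MG) on the International Space Station were compared with the livers of mice that lived in the same station inside a centrifuge, which gave them artificial gravity (AG) of 1 g. The comparison uses all 6 flight libraries of a series of 9, the 3 titled MG and the 3 titled AG, and all 49585 gene rows of the deposited table, of which 11884 had enough reads to test. Results are given with and without AG library 1, which stands apart, as described below.

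Both flight groups were male C57BL/6J mice from the Jackson Laboratory, bought at 5 weeks of age, launched together and aged 14 weeks when their livers were taken. MG mice were housed without added gravity for about 35 days. AG mice were housed for the same time at a centrifugation speed of 77 rpm. All flight mice then returned to Earth and were killed 2 days after splashdown, so both groups share the launch, the return and those days on the ground. The return to 1 g was a change of gravity for MG mice but not for AG mice. Its part in the contrast cannot be told apart from that of the time in orbit. A ground control group (GC) of male C57BL/6J mice from Charles River Laboratories was reared for 35 days at 1 g in Japan. GC mice were also bought at 5 weeks of age and aged 14 weeks. Its 3 libraries are given beside the flight values for orientation, and since the supplier differed, a difference between flight and GC also compares suppliers. Each flight group held 6 animals. The labels tie no library to an animal and do not state if livers were pooled. The p-values below therefore rest on differences among libraries of a group, part of which may be technical.

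A centrifuge in orbit separates gravity from the other conditions of space flight, because animals on and off the centrifuge share the vehicle, its air and its radiation. The liver makes fatty acids and triglycerides from dietary sugar, a programme switched on by insulin through the transcription factor SREBP-1c and by sugar through ChREBP, and it oxidises fatty acids in fasting under the receptor PPAR-alpha. It also secretes most plasma proteins, breaks down drugs and steroids with cytochrome P450 enzymes that differ between the sexes, and runs a daily clock of its own.

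RNA was depleted of ribosomal RNA and sequenced, and the deposited expression values are whole read counts per gene. Their totals lay between 7694926 and 8957331 in MG, between 6330963 (AG 1) and 8012025 in AG, and between 6194521 and 8530905 in GC. Levels are given below as CPM (counts per 1000000 reads of the scaled library total), which compare a gene between libraries and not 1 gene with another. In these libraries, 3 reads are worth 0.339 to 0.473 CPM. Summed levels of 10 hepatocyte markers, among them albumin, were 133361, 131462 and 143268 CPM in MG, 121402, 120525 and 142991 CPM in AG and 110116, 107442 and 123694 CPM in GC, and no hepatocyte marker was at 0 in any group.

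Both AG 1 and AG 3 are set apart in what follows, in different genes. AG 1 held 191 genes at a level at least 2-fold above every other library, against at most 8 in any other library. Of 16 tested Kupffer cell and macrophage markers, 14 were highest in AG 1 among all 9 libraries, against 19% of all tested genes. Their summed level was 380.1, 400.3 and 431 CPM in MG, 1664, 498 and 469.6 CPM in AG and 469, 488 and 446 CPM in GC. Marco, a scavenger receptor of macrophages, had 3.28, 4.15 and 4.62 CPM in MG, 278, 3.23 and 5.98 CPM in AG and 2.46, 4.25 and 3.15 CPM in GC. Clec4f, a lectin that defines resident Kupffer cells, had 66.8, 76.7 and 79.6 CPM in MG, 78.7, 91.1 and 74.9 CPM in AG and 82.9, 84.9 and 82.7 CPM in GC, so that AG 1 lay inside the range of the other libraries for it. Summed neutrophil and monocyte markers were 10.9, 10.2 and 9.11 CPM in MG, 98.2, 11.1 and 9.5 CPM in AG and 9.5, 16.4 and 10.8 CPM in GC, with AG 1 again alone at the top. Of the neutrophil and monocyte markers, 6 of 14 had no reads in any MG library (Ly6g, Ngp, Camp, Ltf, Elane and Mpo). AG 3 lay with the remaining libraries in these summed markers, and within or close to the MG range in some clock and heat shock genes named below. In bulk tissue, fewer cells of a type and less RNA per cell of that type cannot be told apart.

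**Figure D1:**
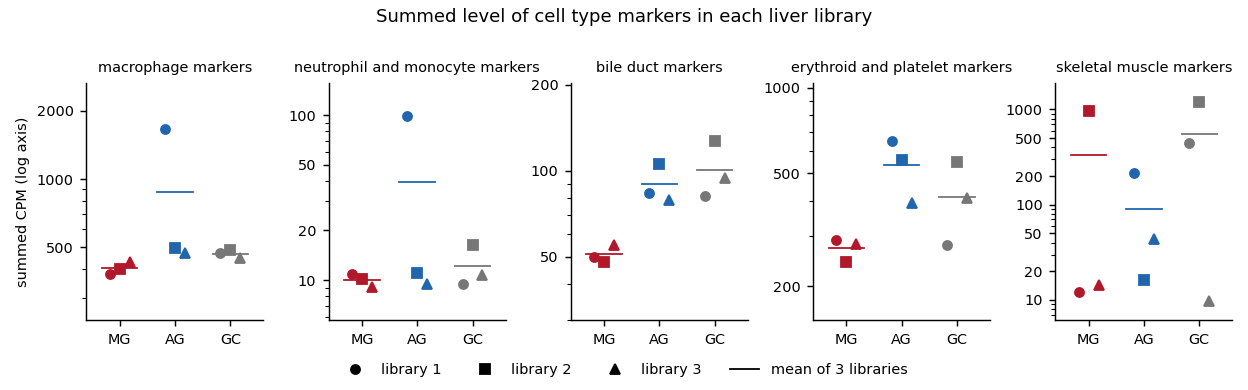
Summed CPM (log axis) of macrophage, neutrophil and monocyte, bile duct, erythroid and platelet, and skeletal muscle markers in each library, by group; points are libraries and lines are means of 3. AG 1 stands alone in the macrophage and neutrophil panels, at 1664 and 98.2 CPM, while all 3 MG libraries lie below all 3 AG libraries in the bile duct and erythroid panels.

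Across all genes, few differences between microgravity and artificial gravity passed the test with this number of libraries, which does not show that the livers were alike. With all 3 AG libraries, edgeR's quasi-likelihood test with Benjamini-Hochberg adjustment called 0 of 11884 genes (0%) at an adjusted p below 0.05. The smallest adjusted p was 0.0606, and 1165 genes had an unadjusted p below 0.05. DESeq2 called 97 genes (0.816%) on the same counts, 38 higher and 59 lower in MG, and limma-voom called 2. The levels of the 3 MG libraries did not overlap those of the 3 AG libraries in 1468 genes (12.4%), with 760 higher (6.4%) and 708 lower (5.96%) in MG. The median log2 fold change of MG over AG over all tested genes was 0.00030.

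Leaving out 1 AG library changed the number of calls, and which library was left out decided how. Without AG 1, 7 of 12104 genes (0.0578%) were called, 1 higher (0.00826%) and 6 lower (0.0496%) in MG, and 943 had an unadjusted p below 0.05. Without AG 3, 130 of 12161 genes (1.07%) were called, 70 higher (0.576%) and 60 lower (0.493%), and 2048 had an unadjusted p below 0.05. The main comparisons were those with all libraries and without AG 1, and AG 3 was left out in addition. In 42 of those 70 genes and 35 of those 60, the omitted AG 3 lay within the MG range or beyond it, away from AG 1 and AG 2. Calls without AG 3 thus rest on AG 1 and AG 2. The sets called without AG 1 and without AG 3 shared 4 genes, which is 57.1% of the smaller set and 3.08% of the larger. Leaving out AG 2, or any 1 of the MG libraries, called 0 genes. Genes whose MG libraries did not overlap the remaining AG libraries made up 21.7% of those tested without AG 1 (10.7% higher, 11% lower in MG) and 31.4% without AG 3 (16.2% higher, 15.1% lower).

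The authors' deposited table marks 60 of the 49585 genes (0.121%) at an adjusted p below 0.05 for the same groups. Its fold column runs AG over MG: of the 60 genes in the authors' deposited table, 43 have a positive fold, and all 43 have a lower mean in MG, while the other 17 have a higher mean in MG. Of those 60 genes, 49 were tested here, all 49 had an unadjusted p below 0.05 in edgeR's test, and 40 were called by DESeq2. The authors' deposited table marks 5 of the 7 genes called without AG 1 and 28 of the 130 called without AG 3.

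Of the genes that make fatty acids, Scd1 was called without AG 1 and without AG 3, and Elovl6 and Thrsp without AG 1 only among these fits. Without AG 1, Scd1, Elovl6 and Thrsp fell, 3 of 19 tested genes on a list for making fatty acids and triglycerides, against 0.0496% of all tested genes. Of the 19, 11 had all MG libraries below AG 2 and AG 3 and 0 had all above, where 11% and 10.7% of all tested genes did. The list's median log2 fold change was -0.47 without AG 1, beside 0.0084 over all genes in that fit. With all 3 AG libraries, 0 of 18 tested members were called, 16 of 18 had a negative fold change, 3 had all MG libraries below all AG libraries (against 5.96% of all tested genes) and the median was -0.32. Without AG 3, 1 of 19 fell, against 0.493% of all tested genes, and the median was -0.25. In that fit 4 had all MG libraries below AG 1 and AG 2 and 1 had all above, against 15.1% and 16.2%. AG 1 was the lowest of the AG libraries in 14 of the 18 (77.8%), against 37.3% of all tested genes.

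Scd1, the desaturase that turns saturated into monounsaturated fatty acids (chromosome 19, 44394451-44407709 in GRCm38/mm10), had 1135, 825 and 1636 CPM in the MG libraries, 2495, 5578 and 3794 CPM in the AG libraries and 6599, 5518 and 6094 CPM in the GC libraries. The highest MG library lay below the lowest AG library, so that the groups did not overlap, and AG 1 was the AG library nearest to MG. Its means were 1199 ± 409.5 CPM in MG and 3956 ± 1548 CPM in AG (SD, n = 3 each). On the log2 scale, MG minus AG was -1.72 ± 0.29 (SE, adjusted p = 0.108) with all libraries, -1.97 ± 0.25 (adjusted p = 0.0308) without AG 1 and -1.76 ± 0.32 (adjusted p = 0.0326) without AG 3.

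Elovl6, the elongase that makes stearate from palmitate (chromosome 3, 129532355-129638495), had 70.9, 66.6 and 58.8 CPM in the MG libraries, 86.9, 176 and 158 CPM in the AG libraries and 268, 214 and 215 CPM in the GC libraries. All MG libraries lay below all AG libraries, and AG 1 again lay nearest to MG. The log2 fold change was -1.10 ± 0.22 (adjusted p = 0.198) with all libraries and -1.35 ± 0.13 (adjusted p = 0.00943) without AG 1, where it had the smallest adjusted p of any gene. Without AG 3 it was -1.02 ± 0.24 (adjusted p = 0.0686). Of the 6 named genes called without AG 1, Elovl6 alone kept an adjusted p below 0.05 when each of the remaining 5 flight libraries was left out in turn.

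Thrsp, also called Spot 14, is a small protein induced by thyroid hormone and by dietary sugar that acts on the lipogenic programme. Its promoter, from 250 bases before to 50 after the gene's start, is shown because Thrsp gave the largest change among the 3 lipogenic genes called in the fit without AG 1, though not in the fits with all libraries or without AG 3 (RefSeq, GRCm38.p6, chr7:97417501-97417800, minus strand). Capitals mark CCAAT, the core of the site of the factor NF-Y, on either strand.
Thrsp: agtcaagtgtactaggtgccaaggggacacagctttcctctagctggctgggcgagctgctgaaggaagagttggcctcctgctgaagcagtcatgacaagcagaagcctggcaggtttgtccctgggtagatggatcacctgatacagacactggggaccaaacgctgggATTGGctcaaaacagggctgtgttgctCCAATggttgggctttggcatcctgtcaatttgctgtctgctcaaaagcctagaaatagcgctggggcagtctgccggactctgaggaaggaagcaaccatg
The letters CCAAT occurred at 2 places, 79 and 52 bases before the RefSeq start on which the window is set. The span given for Thrsp below runs to 97417730, past that start, so both places lie inside it. Of 27025 mouse promoters of the same length, 37.8% hold CCAAT on at least 1 strand. The sterol element letters TCACNCCAC did not occur in this window, and 1.22% of the 27025 promoters hold them. The promoter of Elovl6 held neither motif in the same window. These matches describe letters and were not tested as sites.

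Thrsp (chromosome 7, 97412938-97417730) had 187, 130.2 and 118 CPM in the MG libraries, 83.7, 486 and 718 CPM in the AG libraries and 809, 937 and 1169 CPM in the GC libraries. AG 2 and AG 3 lay above every MG library, whereas AG 1 lay below every MG library, so that with all libraries the groups overlapped. MG over AG gave a log2 fold change of -2.05 ± 0.23 (adjusted p = 0.0171) without AG 1, -1.56 ± 0.55 (adjusted p = 0.412) with all libraries and -0.98 ± 0.51 (adjusted p = 0.371) without AG 3. Of these 3 fits, only that without AG 1 called Thrsp.

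Several other steps of the pathway were lower in MG than in AG 2 and AG 3 without passing the test. Fasn, the synthase that makes palmitate (chromosome 11, 120805846-120824547), had 337, 398 and 336 CPM in the MG libraries, 283, 743 and 747 CPM in the AG libraries and 952, 1120.3 and 1769 CPM in the GC libraries. As for Thrsp, AG 1 lay below every MG library and the other AG libraries above. The log2 fold change was -0.73 ± 0.33 (adjusted p = 0.51) with all libraries and -1.06 ± 0.22 (adjusted p = 0.159) without AG 1. Acly, which makes the cytosolic acetyl-CoA used for fatty acids (chromosome 11, 100476353-100528000), had 179.8, 178 and 174 CPM in MG, 156, 271 and 267 CPM in AG and 319, 391 and 388 CPM in GC. For Acly the log2 fold change was -0.39 ± 0.18 (adjusted p = 0.523) with all libraries and -0.60 ± 0.11 (adjusted p = 0.126) without AG 1. AG 1 was once more below every MG library. Acaca, which makes malonyl-CoA for chain growth, had 136, 156 and 114 CPM in MG, 124, 198 and 181 CPM in AG and 265, 296 and 247 CPM in GC. The Acaca log2 fold change was -0.48 ± 0.14 (adjusted p = 0.373) without AG 1. Srebf1, which encodes the SREBP-1 factors, had 359, 163 and 162 CPM in MG, 175, 230.4 and 572 CPM in AG and 391, 494 and 699 CPM in GC, and its groups overlapped in every fit. Dgat1, which attaches the last fatty acid of a triglyceride, had 18.3, 16.2 and 15.5 CPM in MG and 22.4, 22 and 19.3 CPM in AG, without overlap and with a log2 fold change of -0.35 ± 0.13 (adjusted p = 0.417) with all libraries and -0.31 ± 0.14 (adjusted p = 0.647) without AG 1.

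In the ground controls the lipogenic genes were at or above the AG level. For Scd1, the log2 fold change over GC was -2.34 ± 0.30 in MG (adjusted p = 0.00656) and -0.62 ± 0.29 in AG (adjusted p = 0.5). For Elovl6 these values were -1.83 ± 0.22 in MG (adjusted p = 0.00577) and -0.73 ± 0.22 in AG (adjusted p = 0.331), and for Fasn they were -1.84 ± 0.34 in MG (adjusted p = 0.0259) and -1.12 ± 0.33 in AG (adjusted p = 0.331). Both comparisons use the same GC libraries, and both also compare suppliers.

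**Figure D2:**
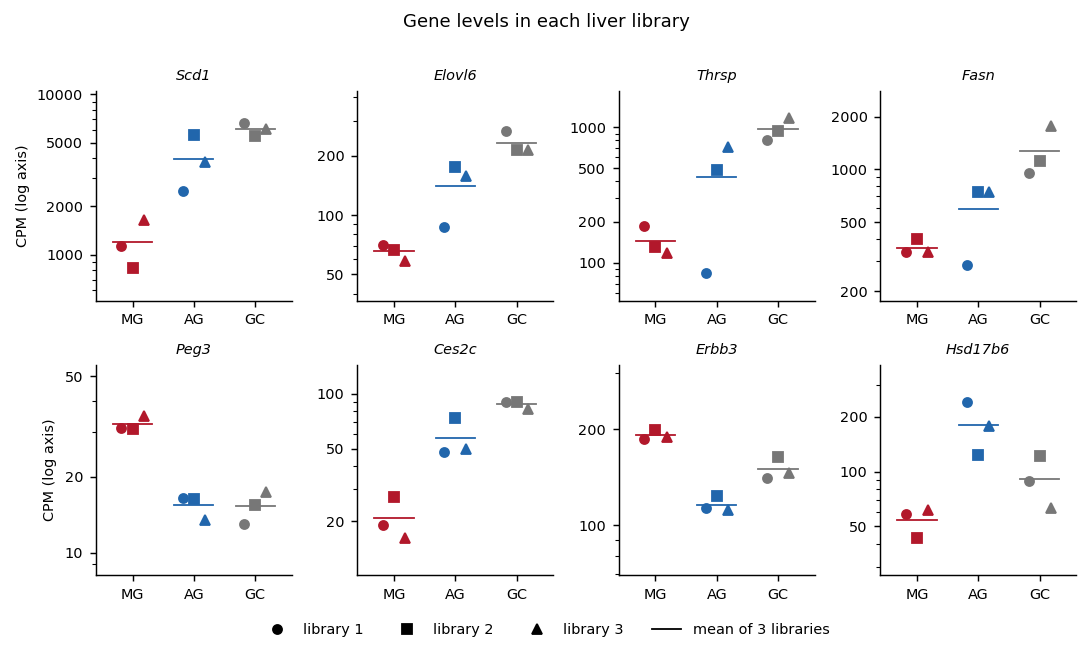
CPM (log axis) of 8 genes in each library, by group; points are libraries and lines are means of 3. In Scd1, Elovl6 and Ces2c all MG libraries lie below all AG libraries, in Thrsp and Fasn AG 1 lies below the MG libraries, and in Peg3 and Erbb3 all MG libraries lie above all AG libraries.

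Genes of cholesterol synthesis and uptake showed no call in any of the 3 fits. With all libraries, 17 of 25 had a negative fold change, 6 had all MG libraries below all AG libraries and 0 had all above, against 5.96% and 6.4% of all tested genes, and the median log2 fold change was -0.23. Without AG 1 the median was -0.36 and 14 of 25 had all MG libraries below AG 2 and AG 3, against 11% of all tested genes, while without AG 3 the median was 0.01. AG 1 was the lowest AG library for all 25. Sqle, squalene epoxidase, had 10.2, 11 and 9.64 CPM in MG, 15.6, 18.2 and 34 CPM in AG and 23.1, 28.2 and 72.6 CPM in GC, without overlap between MG and AG. Insig1, which holds the SREBP escort protein in the endoplasmic reticulum, had 153, 129 and 128 CPM in MG, 155, 236 and 318 CPM in AG and 219, 367 and 668 CPM in GC. The Insig1 log2 fold change was -0.79 ± 0.35 (adjusted p = 0.502) with all libraries and -1.01 ± 0.35 (adjusted p = 0.521) without AG 1.

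The other 4 genes called without AG 1 had different roles, and for all of them all MG libraries lay on one side of all 3 AG libraries. Peg3, an imprinted zinc finger gene expressed from the paternal copy (chromosome 7, 6703892-6730431), was the only one that rose. It had 31.2, 31 and 34.6 CPM in the MG libraries, 16.5, 16.3 and 13.5 CPM in the AG libraries and 13, 15.4 and 17.4 CPM in the GC libraries, about the same in AG as in GC. Its means were 32.3 ± 2.03 CPM in MG and 15.4 ± 1.67 CPM in AG (SD, n = 3 each). For it, the log2 fold change was 1.06 ± 0.14 with all libraries, where its adjusted p of 0.0606 was the smallest of any gene, 1.11 ± 0.16 (adjusted p = 0.0473) without AG 1 and 0.97 ± 0.14 (adjusted p = 0.0148) without AG 3.

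Ces2c, a carboxylesterase of the endoplasmic reticulum (chromosome 8, 104847068-104854483), had 19.1, 27.1 and 16.2 CPM in the MG libraries, 47.7, 73.9 and 49.6 CPM in the AG libraries and 89.5, 89.6 and 82.8 CPM in the GC libraries. The levels stood in the order MG, AG and GC with no overlap between any 2 groups. The log2 fold change was -1.46 ± 0.20 (adjusted p = 0.0621) with all libraries, -1.57 ± 0.21 (adjusted p = 0.0378) without AG 1 and -1.55 ± 0.21 (adjusted p = 0.0113) without AG 3. Its neighbour in the same gene cluster, Ces2a (chromosome 8, 104734003-104741634), had 256, 235 and 208 CPM in MG, 275, 423 and 376 CPM in AG and 355, 408 and 367 CPM in GC. For Ces2a the log2 fold change was -0.62 ± 0.15 (adjusted p = 0.28) with all libraries and -0.77 ± 0.12 (adjusted p = 0.0593) without AG 1. Ces2b, another member, had 0.339, 0.252 and 0.264 CPM in MG, 2.74, 3.73 and 0.153 CPM in AG and 5.04, 4.57 and 5.55 CPM in GC, with AG 3 beside MG. Reads of these related esterases may be shared, so their separate values are uncertain.

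Lama3, the laminin alpha-3 chain of basement membranes (chromosome 18, 12333819-12583013), had 5.65, 4.91 and 4.89 CPM in MG, 7.17, 12.6 and 12.4 CPM in AG and 18.5, 17.6 and 23.6 CPM in GC. This amounted to a log2 fold change of -1.06 ± 0.23 (adjusted p = 0.211) with all libraries and -1.27 ± 0.18 (adjusted p = 0.0473) without AG 1. The RIKEN gene 1500017E21Rik, for which no role is given here, had 0.791, 1.13 and 0.792 CPM in MG, 2.74, 5.47 and 5.06 CPM in AG and 6.22, 8.03 and 6.45 CPM in GC. Its log2 fold change was -2.28 ± 0.34 (adjusted p = 0.0713) with all libraries and -2.52 ± 0.29 (adjusted p = 0.0171) without AG 1. In both genes every MG library was below every AG library and every AG library was below every GC library.

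With all 6 flight libraries, the genes of smallest p besides Scd1, Peg3 and Ces2c included growth factor, steroid and drug metabolism genes, and none passed the threshold. Erbb3, a receptor tyrosine kinase for neuregulins (chromosome 10, 128567523-128589652), had 186, 199 and 189 CPM in the MG libraries, 113, 123 and 111 CPM in the AG libraries and 140.2, 163 and 146 CPM in the GC libraries. MG was above both other groups, which is a log2 fold change of 0.72 ± 0.09 over AG (adjusted p = 0.0606) with all libraries and 0.71 ± 0.11 (adjusted p = 0.0593) without AG 1, with 0.69 ± 0.10 (adjusted p = 0.0152) without AG 3. Igfbp2, a plasma protein that binds insulin-like growth factors (chromosome 1, 72824503-72852474), had 229, 213 and 209 CPM in MG, 483, 362 and 437 CPM in AG and 437, 601 and 438 CPM in GC. MG was below both other groups, and the log2 fold change was -0.98 ± 0.15 over AG (adjusted p = 0.0713) with all libraries, -0.88 ± 0.15 (adjusted p = 0.109) without AG 1 and -0.97 ± 0.16 (adjusted p = 0.025) without AG 3. Igfbp3, a relative of Igfbp2, had 11.1, 8.56 and 8.85 CPM in MG, 23.3, 18.2 and 14.6 CPM in AG and 14.4, 15.4 and 11.6 CPM in GC. Igfbp3 had a log2 fold change of -0.97 ± 0.20 (adjusted p = 0.198) with all libraries and -0.78 ± 0.18 (adjusted p = 0.246) without AG 1, and Igf1 itself had 762, 624 and 665 CPM in MG and 634, 675 and 830.3 CPM in AG, where the groups overlapped. Of 17 tested genes of growth hormone, STAT5 and IGF signalling, 3 had all MG libraries above all AG libraries (Stat5b, Igfbp1 and Insr) and 2 had all below, against 6.4% and 5.96% of all tested genes. Without AG 3 these 2, Igfbp2 and Igfbp3, fell, against 0.493% of all tested genes.

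Rnf125, a ubiquitin ligase (chromosome 18, 20944625-20983848), had 33.7, 43 and 37.4 CPM in MG, 20.6, 23.5 and 19 CPM in AG and 27.6, 27.6 and 22.5 CPM in GC. The Rnf125 log2 fold change was 0.85 ± 0.14 (adjusted p = 0.0764) with all libraries and 0.84 ± 0.16 (adjusted p = 0.126) without AG 1. Pcsk4, a proprotein convertase (chromosome 10, 80321283-80329498), had 9.38, 8.94 and 10.2 CPM in MG, 21.7, 21.5 and 15.2 CPM in AG and 14.3, 14.5 and 13.8 CPM in GC. For Pcsk4 the log2 fold change was -1.04 ± 0.16 (adjusted p = 0.0713) with all libraries and -0.95 ± 0.16 (adjusted p = 0.109) without AG 1. In both genes the GC mean lay between the MG and AG means. Hsd17b6, which interconverts androgens and other steroids (chromosome 10, 127990941-128000678), had 58.6, 43 and 61.8 CPM in MG, 242, 124 and 178 CPM in AG and 88.7, 123 and 63.5 CPM in GC, and AG 1 was the highest library. On the log2 scale, MG minus AG was -1.73 ± 0.27 (adjusted p = 0.0764) with all libraries and -1.47 ± 0.25 (adjusted p = 0.109) without AG 1.

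Differences in drug-metabolising genes ran in both directions. Of 26 tested P450, Ugt, Fmo and carboxylesterase genes, 3 had all MG libraries above and 6 all below the AG libraries, against 6.4% and 5.96% of all tested genes. The 1 call without AG 1 was Ces2c, which fell, as did 0.0496% of all tested genes. Without AG 3, 1 rose and 2 fell, against 0.576% and 0.493% of all tested genes. Cyp2c38, a P450 (chromosome 19, 39389556-39463075), had 113, 113 and 119 CPM in MG, 50.01, 45.4 and 75.7 CPM in AG and 32.4, 32 and 32.6 CPM in GC, higher in MG than in both other groups. Its log2 fold change over AG was 1.01 ± 0.16 (adjusted p = 0.0764) with all libraries, 0.93 ± 0.17 (adjusted p = 0.126) without AG 1 and 1.26 ± 0.09 (adjusted p = 0.000445) without AG 3. Cyp2c55, from the same gene cluster (chromosome 19, 39007019-39042693), went the other way with 1.24, 0.881 and 0.66 CPM in MG, 3.05, 4.6 and 4.14 CPM in AG and 4.22, 4.57 and 3.3 CPM in GC and a log2 fold change of -2.05 ± 0.33 (adjusted p = 0.0764) with all libraries and -2.20 ± 0.33 (adjusted p = 0.0593) without AG 1. Cyp1a2, a P450 that oxidises caffeine (chromosome 9, 57676937-57683703), had 432, 378 and 472 CPM in MG, 573, 696 and 762 CPM in AG and 727, 745 and 833 CPM in GC. Its log2 fold change was -0.66 ± 0.13 (adjusted p = 0.184) with all libraries and -0.77 ± 0.12 (adjusted p = 0.0593) without AG 1. Cyp2a5, which hydroxylates coumarin, had 809, 512 and 589.7 CPM in MG, 1029, 1097 and 1488 CPM in AG and 715, 954 and 950.3 CPM in GC, and Cyp3a11, the main Cyp3a enzyme of mouse liver, had 2457, 2766 and 3288 CPM in MG, 3693, 4161 and 5042 CPM in AG and 3324, 3909 and 3382 CPM in GC, both without overlap between MG and AG. Gsta1, a glutathione transferase with close relatives (chromosome 9, 78230656-78242684), had 0.904, 0.629 and 0 CPM in MG, 6.1, 4.97 and 4.44 CPM in AG and 3.28, 4.57 and 2.85 CPM in GC, near the level of 3 reads in MG, so no fold change is given for it.

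Many genes that are higher in male than in female livers were lower in the MG libraries. Of 19 tested male-biased genes, 9 had all MG libraries below all AG libraries and 0 had all above, against 5.96% of all tested genes below. The median log2 fold change was -0.70 with all libraries, -0.63 without AG 1 and -0.67 without AG 3. None was called with all libraries or without AG 1, and 5 fell without AG 3, against 0.493% of all tested genes. Cyp4a12b, a male-specific P450 that hydroxylates fatty acids (chromosome 4, 115411624-115439034), had 34.3, 25.3 and 22.8 CPM in the MG libraries, 65.6, 75.6 and 56.7 CPM in the AG libraries and 92.1, 66.8 and 80.7 CPM in the GC libraries. MG over AG gave a log2 fold change of -1.26 ± 0.18 (adjusted p = 0.0621) with all libraries, -1.26 ± 0.19 (adjusted p = 0.0593) without AG 1 and -1.36 ± 0.18 (adjusted p = 0.00957) without AG 3. Its near-identical neighbour Cyp4a12a had 132, 102 and 77 CPM in MG, 164, 195 and 174 CPM in AG and 215, 177 and 289.9 CPM in GC, and reads may be shared between the pair.

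Ugt2b38, a glucuronosyltransferase, had 3.84, 3.02 and 4.23 CPM in MG, 19.7, 16.5 and 6.59 CPM in AG and 19.8, 16.4 and 12.5 CPM in GC. Ugt2b38 had a log2 fold change of -1.95 ± 0.36 (adjusted p = 0.155) with all libraries, -1.66 ± 0.36 (adjusted p = 0.203) without AG 1 and -2.29 ± 0.22 (adjusted p = 0.00237) without AG 3. Hsd3b5, a steroid dehydrogenase of male liver, had 9.95, 9.82 and 9.11 CPM in MG, 22.6, 37.5 and 11.2 CPM in AG and 33.7, 29 and 29.1 CPM in GC, with AG 3 just above the MG libraries. Its log2 fold change was -1.31 ± 0.33 (adjusted p = 0.28) with all libraries, -1.35 ± 0.37 (adjusted p = 0.335) without AG 1 and -1.65 ± 0.20 (adjusted p = 0.00596) without AG 3. Cyp7b1, an oxysterol hydroxylase of bile acid synthesis (chromosome 3, 18071950-18243338), had 139, 95.5 and 111 CPM in MG, 201, 227 and 148 CPM in AG and 319, 298 and 333 CPM in GC. For Cyp7b1 the log2 fold change was -0.74 ± 0.17 (adjusted p = 0.247) with all libraries, -0.70 ± 0.19 (adjusted p = 0.33) without AG 1 and -0.90 ± 0.15 (adjusted p = 0.0207) without AG 3. Cyp2u1, another P450, had 28.6, 31.7 and 37.6 CPM in MG and 57.8, 59.1 and 41.8 CPM in AG. The Cyp2u1 log2 fold change was -0.85 ± 0.12 (adjusted p = 0.0113) without AG 3 and -0.63 ± 0.16 (adjusted p = 0.277) without AG 1. Mean GC levels lay above mean AG levels in Cyp4a12b, Ugt2b38, Hsd3b5 and Cyp7b1.

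Some genes that are higher in female livers rose in the fit without AG 3, and none was called with all libraries or without AG 1. Of 20 listed, 12 were tested with all libraries and without AG 3. Without AG 3, 3 rose, against 0.576% of all tested genes, and the median log2 fold change was 1.58. In that fit 8 had all MG libraries above AG 1 and AG 2, against 16.2% of all tested genes. With all libraries, 2 had all MG libraries above and 1 all below, against 6.4% and 5.96%, and the median was 0.47. Without AG 1, 8 of 14 had a positive fold change, 2 had all MG libraries above and 1 all below, against 10.7% and 11%, and the median was 0.25. AG 3 was nearer to the MG mean than to the mean of AG 1 and AG 2 in 11 of the 12, against 61.4% of all tested genes. Cyp39a1, an oxysterol hydroxylase, had 62.1, 74.3 and 92.4 CPM in MG, 24.2, 27.1 and 55.6 CPM in AG and 24.5, 30.1 and 23.9 CPM in GC. Cyp39a1 had a log2 fold change of 1.10 ± 0.27 (adjusted p = 0.28) with all libraries, 0.89 ± 0.26 (adjusted p = 0.382) without AG 1 and 1.56 ± 0.18 (adjusted p = 0.00468) without AG 3. Cux2, a repressor found in female liver, had 3.28, 5.41 and 10.6 CPM in MG, 0.61, 0.497 and 12.7 CPM in AG and 0.586, 0.945 and 1.35 CPM in GC. The range within MG was wide, and AG 3 was the highest of all libraries. Fmo2, a flavin monooxygenase, had 79, 94.2 and 94.4 CPM in MG and 45.6, 35.9 and 117 CPM in AG, with AG 3 again above MG. Prlr, the prolactin receptor, had 93.2, 94.2 and 77.7 CPM in MG, 36.6, 42.3 and 95.1 CPM in AG and 36.1, 30.6 and 39.6 CPM in GC and rose without AG 3 (log2 fold change 1.16 ± 0.14, adjusted p = 0.00602), beside 0.37 ± 0.26 (adjusted p = 0.783) without AG 1.

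Genes of fatty acid oxidation and other targets of PPAR-alpha had mostly small positive fold changes. Of 33 tested, 27 had a positive fold change with a median of 0.20 on the log2 scale, but 1 had all MG libraries above all AG libraries and 2 had all below, against 6.4% and 5.96% of all tested genes, and none was called in any of the 3 fits. Acadl, the long-chain acyl-CoA dehydrogenase, had 254, 303 and 295 CPM in MG, 226, 232 and 236 CPM in AG and 203, 186 and 199 CPM in GC, the 1 gene with all MG libraries above. Cyp4a14, a fatty acid hydroxylase strongly induced through PPAR-alpha (chromosome 4, 115486200-115496142), had 1185, 2093 and 2202 CPM in MG, 906, 711 and 1861 CPM in AG and 430.1, 214 and 308 CPM in GC, with overlap between MG and AG and a log2 fold change of 0.66 ± 0.37 (adjusted p = 0.584) with all libraries and 0.51 ± 0.40 (adjusted p = 0.819) without AG 1. Both flight groups lay above GC for Cyp4a14. Nnt, the gene of a mitochondrial enzyme that makes NADPH from NADH (chromosome 13, 119335448-119408997), had 91.2, 86.9 and 84.8 CPM in MG, 63, 71.2 and 70.6 CPM in AG and 54.1, 52.5 and 57 CPM in GC, without overlap between MG and AG. The Nnt log2 fold change was 0.36 ± 0.09 (adjusted p = 0.28) with all libraries and 0.31 ± 0.09 (adjusted p = 0.416) without AG 1. These are RNA counts, which do not show whether a working enzyme was made, and the enzyme itself was not measured.

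Apoa4, an apolipoprotein of triglyceride-rich particles (chromosome 9, 46240696-46243459), had 487, 732 and 904 CPM in the MG libraries, 319, 172 and 135 CPM in the AG libraries and 108, 59.7 and 46.4 CPM in the GC libraries. The lowest MG library was above the highest AG library, AG 1, and no AG library reached down to the GC range. Its log2 fold change over AG was 1.76 ± 0.37 (adjusted p = 0.206) with all libraries and 2.20 ± 0.35 (adjusted p = 0.0697) without AG 1. Over GC it was 3.30 ± 0.40 in MG (adjusted p = 0.00577) and 1.54 ± 0.37 in AG (adjusted p = 0.236). Of 21 tested apolipoprotein and lipoprotein genes, 5 had all MG libraries above all AG libraries, Apoa1, Apoa4, Apoa5, Apob and Lcat, and 2 had all below, against 6.4% and 5.96% of all tested genes. None was called with all libraries or without AG 1, and 1 fell without AG 3, against 0.493% of all tested genes.

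Some plasma proteins of the acute phase were higher in the MG libraries. Of 23 tested, 7 had all MG libraries above all AG libraries and 0 had all below, against 6.4% above among all tested genes. Their median log2 fold change was 0.31 with all libraries, 0.40 without AG 1 and 0.37 without AG 3. The 1 call, without AG 3, was Apcs, which encodes serum amyloid P and rose, as did 0.576% of all tested genes. Hp, haptoglobin, had 3729.9, 4468 and 4967 CPM in MG, 3069.9, 2536 and 2831 CPM in AG and 2942, 2502 and 2521 CPM in GC. For Hp the log2 fold change was 0.64 ± 0.13 (adjusted p = 0.206) with all libraries and 0.71 ± 0.14 (adjusted p = 0.134) without AG 1. Lbp, which binds bacterial lipopolysaccharide, had 138, 119 and 134 CPM in MG, 92.4, 70.7 and 93.2 CPM in AG and 86.3, 69.3 and 58.1 CPM in GC, and Cp, the copper oxidase ceruloplasmin, had 1500.2, 1457 and 1327 CPM in MG, 1048, 986 and 1178 CPM in AG and 985, 892 and 959 CPM in GC. All 3 MG libraries lay above all AG and GC libraries in each. Hamp, the iron hormone hepcidin, had 985, 1463 and 1183 CPM in MG, 356, 638 and 894 CPM in AG and 923, 712 and 611 CPM in GC, also above all AG and GC libraries. Saa1, a major acute phase gene, had 40.1, 19.5 and 18.4 CPM in MG, 29.7, 14 and 20.2 CPM in AG and 231, 106 and 32.9 CPM in GC, so that the flight groups overlapped each other.

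Some clock genes had all MG libraries apart from AG 1 and AG 2 but not from AG 3. Of 18 tested core clock and output genes, 0 were called with all libraries or without AG 1. Without AG 3, 2 rose and 3 fell, against 0.576% and 0.493% of all tested genes. Without AG 3, 5 had all MG libraries above and 10 all below, against 16.2% and 15.1% of all tested genes. With all libraries, 3 had all MG libraries below all AG libraries, AG 3 included (Per2, Bhlhe40 and Ciart), and 0 had all above, against 5.96% and 6.4%. AG 3 was nearer to the MG mean in 13 of the 18 (72.2%), against 61.4% of all tested genes. The genes named from the fit without AG 3 were chosen after its values were seen, and the labels give no hour of collection for the libraries.

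Nr1d1, the repressor REV-ERB-alpha, had 20.5, 9.94 and 10.4 CPM in the MG libraries, 85.2, 48.9 and 9.65 CPM in the AG libraries and 12.2, 12.4 and 10.2 CPM in the GC libraries. AG 1 and AG 2 were above all other libraries, and AG 3 was below every MG library. For it, the log2 fold change was -2.29 ± 0.30 (adjusted p = 0.00957) without AG 3, -1.81 ± 0.57 (adjusted p = 0.373) with all libraries and -1.11 ± 0.51 (adjusted p = 0.647) without AG 1. Dbp, a clock output factor, had 26.1, 14.6 and 17.4 CPM in MG, 76.7, 80.3 and 10.9 CPM in AG and 30.8, 25.2 and 18.8 CPM in GC. Dbp had a log2 fold change of -1.53 ± 0.54 (adjusted p = 0.414) with all libraries, -1.24 ± 0.57 (adjusted p = 0.65) without AG 1 and -2.02 ± 0.23 (adjusted p = 0.00475) without AG 3. Cry1, a repressor of the clock, ran opposite to them with 47.1, 46.4 and 41.5 CPM in MG, 16.5, 24.4 and 44.4 CPM in AG and 31.2, 32.8 and 41.1 CPM in GC. For Cry1 the log2 fold change was 1.13 ± 0.18 (adjusted p = 0.0183) without AG 3 and 0.40 ± 0.22 (adjusted p = 0.734) without AG 1. Arntl, which encodes the activator BMAL1, had 11.3, 17.2 and 13.2 CPM in MG, 2.29, 6.59 and 15.3 CPM in AG and 5.86, 9.45 and 11.1 CPM in GC, in the same direction as Cry1. Clock, its partner, had 93.6, 98.3 and 99 CPM in MG and 63.1, 64 and 108 CPM in AG. Clock had a log2 fold change of 0.60 ± 0.12 (adjusted p = 0.0398) without AG 3 and 0.18 ± 0.19 (adjusted p = 0.87) without AG 1.

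Per1, a repressor of the clock that CLOCK and BMAL1 switch on through E-boxes, has 2 windows in the promoter table, of which the first is shown for its E-box (RefSeq, GRCm38.p6, chr11:69098699-69098998, plus strand). Capitals mark CACGTG, the E-box letters.
Per1: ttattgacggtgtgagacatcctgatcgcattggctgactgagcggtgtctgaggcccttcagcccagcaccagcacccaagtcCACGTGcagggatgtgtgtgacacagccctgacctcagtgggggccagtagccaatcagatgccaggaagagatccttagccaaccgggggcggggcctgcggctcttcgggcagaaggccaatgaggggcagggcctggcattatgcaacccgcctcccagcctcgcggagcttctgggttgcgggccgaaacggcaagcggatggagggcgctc
The E-box began 166 bases before the gene's start, and 7.09% of the 27025 promoters hold CACGTG. The D-box letters TTANGTAA, present in 2.38% of promoters, did not occur in this window. Neither motif occurred in the windows of Nr1d1 and Dbp. Per1 had 51.9, 71 and 69.9 CPM in MG, 150.0, 117 and 52.7 CPM in AG and 70.1, 46.9 and 55.7 CPM in GC. The Per1 log2 fold change was -0.73 ± 0.31 (adjusted p = 0.478) with all libraries, -0.40 ± 0.28 (adjusted p = 0.779) without AG 1 and -1.06 ± 0.19 (adjusted p = 0.0288) without AG 3. Per2, its relative (chromosome 1, 91415982-91459324), did not share the position of AG 3, with 101, 77.2 and 65.8 CPM in MG, 106, 116 and 110.0 CPM in AG and 104, 86.3 and 121 CPM in GC. All MG libraries lay below all AG libraries for Per2. For Per2 the log2 fold change was -0.44 ± 0.16 (adjusted p = 0.416) with all libraries and -0.47 ± 0.18 (adjusted p = 0.566) without AG 1.

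The heat shock genes called without AG 3 also had AG 3 near the MG libraries, and others did not. Of 17 tested heat shock and chaperone genes, 4 fell without AG 3, against 0.493% of all tested genes. In that fit 14 had all MG libraries below AG 1 and AG 2, against 15.1% of all tested genes. With all libraries, 0 were called, 5 had all MG libraries below all AG libraries (Dnaja1, Hspd1, Hspe1, Chordc1 and Stip1), against 5.96% of all tested genes, 15 had a negative fold change and the median was -0.31. AG 3 was nearer to the MG mean in 11 of the 17 (64.7%), against 61.4% of all tested genes. AG 1 was the highest of all 9 libraries for 9 of the 17, against 19% of all tested genes. Hspa1b, an inducible HSP70 chaperone, showed the largest range, and its promoter is given for that reason (RefSeq, GRCm38.p6, chr17:34959189-34959488, minus strand). Capitals mark GAANNTTC, a pair of inverted units of the heat shock element, and CCAAT, each on either strand.
Hspa1b: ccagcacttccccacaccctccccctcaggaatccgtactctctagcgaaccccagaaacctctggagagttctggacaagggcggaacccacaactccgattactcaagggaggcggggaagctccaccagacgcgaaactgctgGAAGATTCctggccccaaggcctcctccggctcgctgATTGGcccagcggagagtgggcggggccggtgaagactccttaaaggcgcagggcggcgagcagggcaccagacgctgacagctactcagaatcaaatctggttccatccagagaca
The heat shock letters began 104 bases and CCAAT 67 bases before the gene's start, and 7.97% of the 27025 promoters hold GAANNTTC. Bag3 and Hsph1 each held GAANNTTC once in the window searched, and Dnajb1 did not. Dnajb1 and Hsph1 have 2 windows each in the promoter table, of which only the first was searched.

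Hspa1b had 9.38, 9.44 and 8.72 CPM in the MG libraries, 140.0, 105 and 9.04 CPM in the AG libraries and 40.6, 21 and 35.9 CPM in the GC libraries. AG 1 and AG 2 were above all other libraries, AG 3 lay inside the MG range, and GC lay between. As a log2 fold change of MG over AG, this was -3.74 ± 0.24 (adjusted p = 0.000203) without AG 3, the smallest adjusted p of that fit, -3.20 ± 0.72 (adjusted p = 0.219) with all libraries and -2.64 ± 0.69 (adjusted p = 0.309) without AG 1. Its near-identical copy Hspa1a had 0.452, 0 and 0.528 CPM in MG and 2.59, 0.87 and 0.306 CPM in AG, and reads may be shared between them. Dnajb1, an HSP40 partner of HSP70, had 36, 30.8 and 31.4 CPM in MG, 85.1, 64.3 and 30.2 CPM in AG and 42.3, 36.1 and 44.7 CPM in GC. Dnajb1 had a log2 fold change of -1.19 ± 0.14 (adjusted p = 0.00573) without AG 3 and -0.53 ± 0.25 (adjusted p = 0.647) without AG 1. Bag3, a co-chaperone of HSP70, had 69.4, 63.4 and 59.3 CPM in MG, 162, 131 and 58.7 CPM in AG and 102, 69.3 and 86.3 CPM in GC, with -1.20 ± 0.16 (adjusted p = 0.00957) without AG 3 and -0.57 ± 0.27 (adjusted p = 0.664) without AG 1. Hsph1, the HSP110 chaperone, had 179, 157 and 126 CPM in MG, 303, 303 and 137 CPM in AG and 159, 146 and 179 CPM in GC, with -0.98 ± 0.15 (adjusted p = 0.0148) without AG 3 and -0.52 ± 0.27 (adjusted p = 0.706) without AG 1. In each of them AG 3 lay within or below the MG range. Dnaja1, another HSP40, had 255, 239 and 233 CPM in MG, 344, 332 and 294 CPM in AG and 276, 263 and 314 CPM in GC, where AG 3 stayed with the AG libraries. The Dnaja1 log2 fold change was -0.42 ± 0.10 (adjusted p = 0.28) with all libraries and -0.37 ± 0.11 (adjusted p = 0.406) without AG 1.

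**Figure D3:**
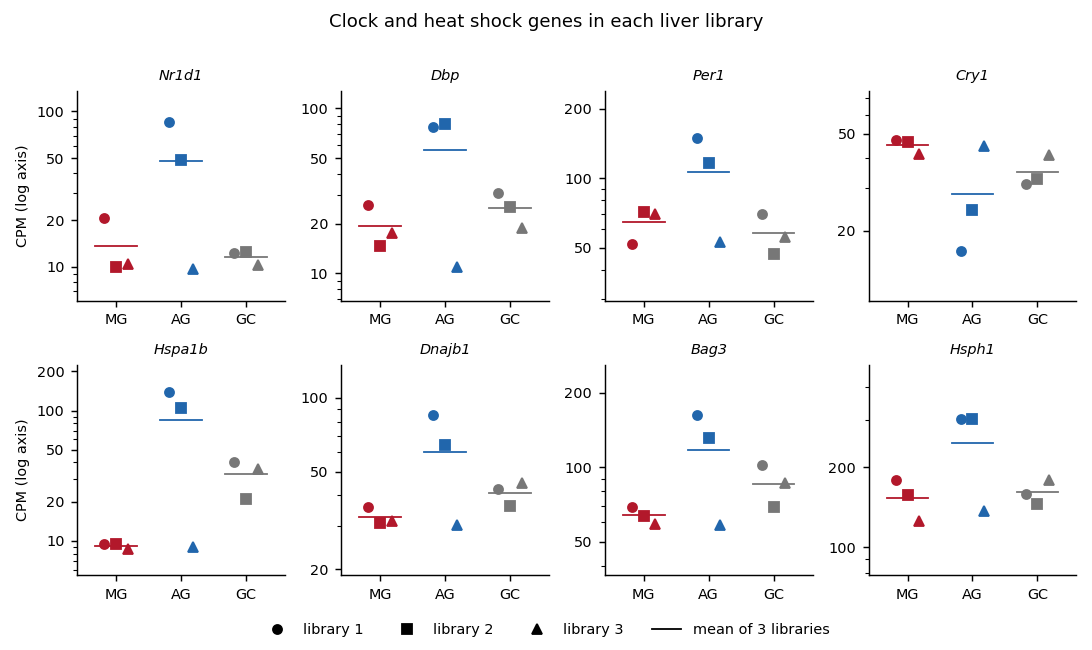
CPM (log axis) of 4 clock genes and 4 heat shock genes in each library, by group; points are libraries and lines are means of 3. AG 1 and AG 2 lie apart from the MG libraries in all 8 genes, which were chosen after their values were seen, while AG 3 lies within the MG range or close to it.

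Other genes called without AG 3, chosen after their values were seen, had further roles. Pfkfb3, which makes the activator of glycolysis fructose 2,6-bisphosphate, had 33.7, 40.2 and 42.1 CPM in MG, 137, 118 and 29 CPM in AG and 42, 32.5 and 31.4 CPM in GC. For Pfkfb3 the log2 fold change was -1.29 ± 0.42 (adjusted p = 0.373) with all libraries, -0.94 ± 0.41 (adjusted p = 0.63) without AG 1 and -1.72 ± 0.14 (adjusted p = 0.000903) without AG 3. Serpina3m, a plasma protease inhibitor, had 582, 647 and 613 CPM in MG, 242, 277 and 569.8 CPM in AG and 345, 286 and 307 CPM in GC, where AG 3 lay just under the MG libraries. Serpina3m had a log2 fold change of 1.24 ± 0.12 (adjusted p = 0.00237) without AG 3 and 0.54 ± 0.23 (adjusted p = 0.63) without AG 1. Insig2, a relative of Insig1, had 141, 207 and 208 CPM in MG, 44.1, 70.9 and 130.4 CPM in AG and 104, 75.3 and 98.4 CPM in GC. For Insig2 the log2 fold change was 1.68 ± 0.24 (adjusted p = 0.0118) without AG 3 and 0.88 ± 0.26 (adjusted p = 0.374) without AG 1. It ran opposite to Insig1, given above.

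The lists of macrophage, interferon, MHC class I and matrix genes had negative medians that were closer to 0 without AG 1. All 16 tested macrophage markers had a negative fold change, with a median of -0.89 with all libraries and -0.27 without AG 1, and in both fits 8 had all MG libraries below the AG libraries, against 5.96% of all tested genes with all libraries and 11% without AG 1. Interferon-induced genes (24 tested) had a median of -0.56 with all libraries and -0.16 without AG 1. AG 1 was the highest of 9 libraries for 15 of them, against 19% of all tested genes. Genes of MHC class I (16 tested) had a median of -0.25 with all libraries and -0.02 without AG 1. AG 1 was highest for 13 of them, against the same 19%. Collagens and matrix genes (18 tested) had a median of -0.42 with all libraries and -0.17 without AG 1, with 5 below in both fits, read against the same shares. NF-kB and cytokine genes had a median of -0.08 with all libraries (12 tested) and 0.12 without AG 1 (13 tested). Col3a1, a fibrillar collagen, had 16.8, 24.2 and 16.5 CPM in MG, 53.7, 31 and 25.1 CPM in AG and 30.5, 56.7 and 28.1 CPM in GC. No gene of these 4 lists was called in any of the 3 fits. The macrophage and neutrophil sums of AG 1 given above move with these values, and their part in the result was not tested.

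Most bile duct markers and all tested red cell markers were lower in every MG library than in every AG library. Of 9 tested bile duct markers, 7 had all MG libraries below all AG libraries, against 5.96% of all tested genes, and the median log2 fold change was -1.80 with all libraries, -1.82 without AG 1 and -1.81 without AG 3. Muc1, a mucin of duct epithelium, had 0.452, 0.378 and 0.792 CPM in MG, 5.03, 7.46 and 2.76 CPM in AG and 1.17, 3.94 and 0.9 CPM in GC. Its MG levels were near that of 3 reads, so no fold change is given. It was the 1 call of the list, lower in MG without AG 3 (adjusted p = 0.0262), where 0.493% of all tested genes fell. The adjusted p of Muc1 was 0.184 with all libraries and 0.183 without AG 1. Krt19, a keratin of duct cells, had 2.15, 2.39 and 2.11 CPM in MG, 6.86, 21.4 and 8.43 CPM in AG and 2.35, 11.5 and 1.35 CPM in GC. For Krt19 the log2 fold change was -2.47 ± 0.69 (adjusted p = 0.323) with all libraries and -2.75 ± 0.69 (adjusted p = 0.277) without AG 1. Krt7, another duct keratin, had 1.02, 1.13 and 0.924 CPM in MG, 2.59, 4.23 and 3.98 CPM in AG and 2.35, 2.68 and 0.6 CPM in GC. The summed level was 49.97, 47.8 and 54.9 CPM in MG, 83.9, 106 and 79.1 CPM in AG and 81.6, 127 and 94.1 CPM in GC, so that every GC library was above every MG library. Sox9, a duct and progenitor factor, had 7.69, 8.94 and 8.45 CPM in MG and 11.4, 8.33 and 8.89 CPM in AG, where the groups overlapped. Large fold scores in the authors' deposited table, lower in MG, included Dmbt1 (725), Adgrg7 (197), Car9 (123) and Slc26a3 (115). It also marks Vil1, a listed intestinal epithelium marker, as lower in MG (16.7). The sum of that list ran the other way, with 63.1, 103 and 84.7 CPM in MG and 37.4, 60.9 and 42.6 CPM in AG. Which tissue these transcripts and the duct markers came from was not tested.

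All 5 tested erythroid and platelet markers had all MG libraries below all AG libraries, against 5.96% of all tested genes, with a median log2 fold change of -1.05 with all libraries, -0.77 without AG 1 and -1.28 without AG 3. Their summed level was 291, 243 and 283 CPM in MG, 650.0, 554 and 392 CPM in AG and 280.2, 549 and 410.2 CPM in GC. Hba-a1, an alpha-globin, had 25.2, 23 and 29.7 CPM in MG, 76.2, 60.6 and 50.1 CPM in AG and 23.1, 54 and 37.7 CPM in GC. Hba-a1 had a log2 fold change of -1.26 ± 0.26 (adjusted p = 0.206) with all libraries, -1.09 ± 0.27 (adjusted p = 0.277) without AG 1 and -1.40 ± 0.27 (adjusted p = 0.0411) without AG 3, where it was called. Globin genes have near-identical copies, and their separate counts are uncertain. Skeletal muscle markers were spread over single libraries of every group, with a summed level of 12.2, 961 and 14.4 CPM in MG, 213, 16 and 43.5 CPM in AG and 445, 1192 and 9.75 CPM in GC. All 19 tested muscle markers had a positive fold change with all libraries, with 0 free of overlap and a median of 1.91. The median was 4.24 without AG 1 and 1.38 without AG 3, with 20 tested in each. Ctrb1, a pancreatic protease precursor, had 0, 0 and 0 CPM in MG, 1.68, 3.85 and 0.613 CPM in AG and 0.938, 1.42 and 0 CPM in GC, so no read in any MG library.

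**Figure D4:**
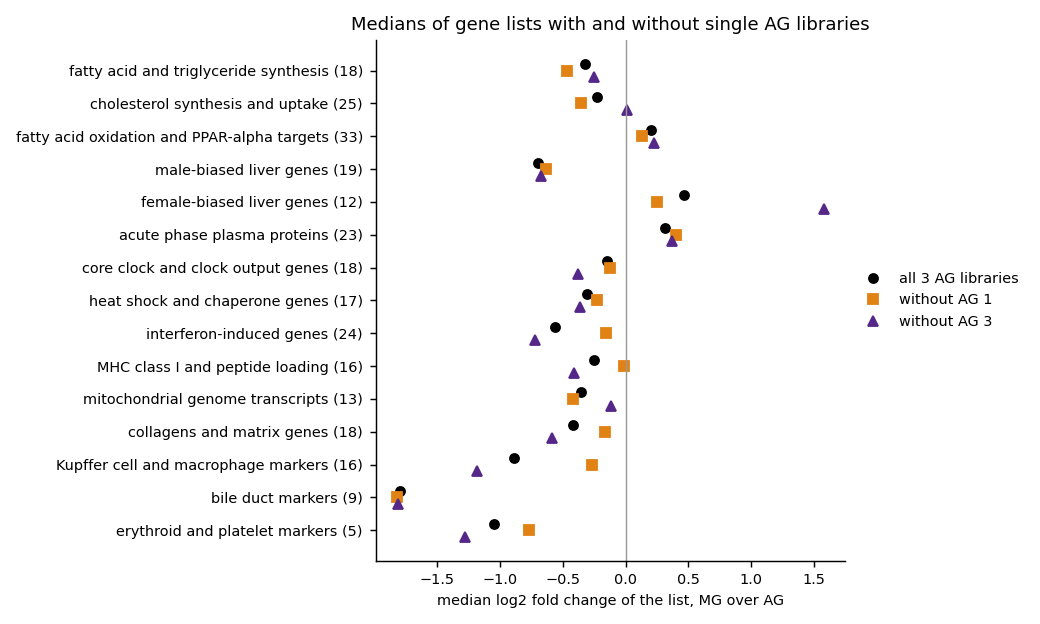
Median log2 fold change of MG over AG for 15 gene lists, with the number of tested genes in brackets; circles use all 3 AG libraries, squares leave out AG 1 and triangles leave out AG 3. The medians of male-biased genes (-0.70, -0.63 and -0.67) and bile duct markers (-1.80, -1.82 and -1.81) stay close together, while those of macrophage, interferon and female-biased genes depend on the AG library left out.

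Reads in introns come from unspliced transcripts, which ribosomal depletion keeps, and give a separate count of the same genes in the same libraries. With all libraries, 1 of 10630 genes (0.00941%) was called by edgeR's test on intron reads. Wsb1, a subunit of a ubiquitin ligase, had 52.2, 52.5 and 37.8 intron CPM in MG, 11.7, 14.6 and 19 in AG and 10.3, 12.4 and 12.4 in GC, with a log2 fold change of 1.67 ± 0.20 (adjusted p = 0.021). In expression values Wsb1 had 32.4, 31 and 26.8 CPM in MG, 23, 18.4 and 13 CPM in AG and 15.7, 11.2 and 10.5 CPM in GC. For Wsb1 the log2 fold change was 0.73 ± 0.21 (adjusted p = 0.328) with all libraries and 0.93 ± 0.20 (adjusted p = 0.207) without AG 1. MG was above both other groups in both counts. Without AG 1, 3 of 10861 genes were called (0.0276%), 2 higher (0.0184%) and 1 lower (0.00921%), and without AG 3, 173 of 11092 (1.56%), 100 higher (0.902%) and 73 lower (0.658%).

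The gene that fell without AG 1 was Thrsp. Its intron level was 43, 36.7 and 25.4 intron CPM in MG, 64.9, 184 and 223 in AG and 237, 231 and 185 in GC, and here AG 1 lay above every MG library. The intron log2 fold change was -2.15 ± 0.37 (adjusted p = 0.257) with all libraries and -2.52 (adjusted p = 0.000586) without AG 1. Fasn had 31.3, 17.7 and 27.1 intron CPM in MG, 44.5, 55.2 and 147 in AG and 119, 174 and 256 in GC, also with AG 1 above the MG libraries, and an intron log2 fold change of -1.67 ± 0.43 (adjusted p = 0.293). In intron reads, unlike expression values, neither gene overlapped between MG and AG. Slco1a4, a transporter of organic anions, had 83, 66.1 and 78.5 intron CPM in MG, 27.3, 36.4 and 43.1 in AG and 34.9, 35.4 and 46.6 in GC, the next smallest p after Wsb1, with an intron log2 fold change of 1.10 ± 0.18 (adjusted p = 0.257). For Scd1, introns gave 36.2, 1.92 and 4.72 intron CPM in MG and 12.9, 44.3 and 235 in AG, a scattered signal with overlap.

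**Figure D5:**
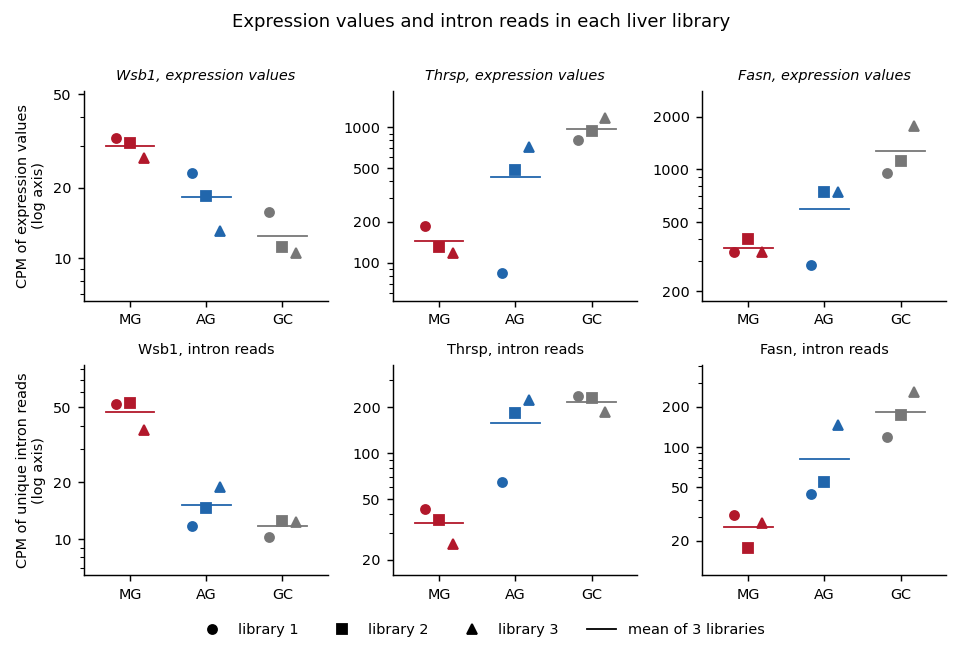
CPM (log axes) of expression values (top) and unique intron reads (bottom) for Wsb1, Thrsp and Fasn in each library, by group; points are libraries and lines are means of 3. In Thrsp and Fasn, AG 1 lies below the MG libraries in expression values and above them in intron reads.

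Some genes were followed whatever their values, and most of them overlapped between MG and AG. Cyp7a1, the rate-limiting enzyme of bile acid synthesis (chromosome 4, 6265612-6275633), had 381, 145 and 179 CPM in MG, 99.6, 195 and 1050.4 CPM in AG and 472, 407 and 398 CPM in GC. AG 3 alone set the sign, since the log2 fold change was -0.93 ± 0.68 with all libraries and 0.67 ± 0.38 without AG 3 (adjusted p = 0.702 and 0.416). Pck1, of gluconeogenesis (chromosome 2, 173153048-173159273), had 3869, 3943 and 5784 CPM in MG and 5218, 5451 and 3541 CPM in AG, and Hsd11b1, which regenerates active glucocorticoid (chromosome 1, 193221634-193264075), had 337, 372 and 391 CPM in MG and 320.2, 332 and 353 CPM in AG. Cdkn1a, the cell cycle inhibitor p21 (chromosome 17, 29090979-29100722), had 4.52, 18.8 and 48.2 CPM in MG and 11.9, 11.6 and 45.8 CPM in AG, a wide range within both groups. Fgf21, a fasting hormone of the liver (chromosome 7, 45613886-45615490), had 1.13, 3.15 and 4.49 CPM in MG and 1.68, 1.37 and 0.46 CPM in AG, with MG 1 inside the AG range. Socs2, an inhibitor of growth hormone signalling (chromosome 10, 95385362-95417180), had 63.1, 49.7 and 41.7 CPM in MG, 61.9, 36.9 and 22.4 CPM in AG and 19, 10.7 and 5.4 CPM in GC, where both flight groups were above GC and overlapped each other. Ccnd1, cyclin D1 (chromosome 7, 144929931-144939925), had 5.99, 8.06 and 9.77 CPM in MG, 18.8, 14.7 and 12.7 CPM in AG and 15.7, 22.1 and 17.9 CPM in GC, without overlap between MG and AG and with a log2 fold change of -0.96 ± 0.22 (adjusted p = 0.231) with all libraries and -0.79 ± 0.22 (adjusted p = 0.344) without AG 1.

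Over the 35 gene lists other than cell type markers, medians with all AG libraries lay between -0.70 (male-biased genes) and 0.47 (female-biased genes). Transcripts of the mitochondrial genome (13 tested) had a median log2 fold change of -0.36, with overlap between MG and AG for all 13. Nuclear subunits of the respiratory chain (28 tested) had -0.04, cytosolic ribosomal proteins (28) -0.09, and the unfolded protein response (20) 0.10. Genes of the urea cycle and amino acid breakdown (25) had -0.05, glucose and glycogen metabolism (23) -0.02, and the Nrf2 and glutathione list (29) 0.01, each with no call with all libraries or without AG 1.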

How the data were processed

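Total RNA of powdered liver was depleted of ribosomal RNA, per the labels' protocols. The authors deposited 1 table of 49585 genes holding, per the file headers, whole read counts per gene and library (expression values, unique and total exon reads, intron reads). They also deposited, for MG and AG, adjusted p-values of a test that the file headers call EDGE with tagwise dispersions, and a signed fold change, treated as a score. Both were used only to describe the authors' deposited table. The builds are GRCm38 and mm10, per the submitters' processing notes; no aligner, counting tool or strand setting is given in the sources used here, so overlapping genes cannot be told apart. The table's other 99 columns of per-library values were not used. Gene starts in the table count from 0 and are given counted from 1.

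Genes kept by edgeR's filterByExpr were tested with edgeR's quasi-likelihood test after TMM scaling, with 1 mean per group over all 9 libraries (6 residual degrees of freedom). P-values were adjusted over all genes tested by Benjamini-Hochberg, and a gene was called below 0.05. The fit was repeated without AG 1, without AG 3 and on intron reads. SEs come from the quasi-likelihood fit and SDs from the libraries of a group, so both include the spread between libraries. The level of 3 reads covers counting error only, and reads carry no molecular identifiers. The biological coefficient of variation was 16.7% with all libraries and 14.4% without AG 1. The spread between replicate libraries exceeded sampling noise for every pair, so none differed from another by the sampling of reads alone. This cannot show whether libraries shared a liver or a pool.

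The members, the 35 gene lists and 14 marker lists, the tests and the rule for named genes were chosen with earlier results of these data known. The rule names up to 12 genes each way among genes called with no overlap and a mean count of at least 50, the 12 with the smallest p where fewer than 6 are called with all libraries, up to 4 members of lists with a called member, and 15 genes in every case, 32 in all. Other genes were named after their values were seen. A named gene and some list members are not reported here. Promoter windows of 10 genes were looked up by symbol in a RefSeq table (GRCm38.p6), and 9 matched. The test was checked on simulated counts. With all libraries it called 18.5% of genes changed 1.5-fold and 49.2% of those changed 2-fold, so a gene not called may still have changed. Of its calls, 14 of 119 with all libraries and 10 of 104 without AG 1 were of unchanged genes, so a called gene may be unchanged. The simulated counts held no library standing apart as AG 1 does. Alternatives were other scalings, no filter, DESeq2, limma-voom, other samples in the fit, a replicate block, another threshold, other counts and leaving out each library. Statistics used edgeR 4.0.16, DESeq2 1.42.0 and limma 3.58.1 under R 4.3.3, and tables and figures used matplotlib 3.10.9 and pandas 2.3.3 under Python 3.11.15.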

Additional observations from a re-analysis of the deposited data

How the results depend on the processing

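The number of genes called with all 6 flight libraries (0) stayed 0 under RLE scaling, library totals, unique exon reads and total exon reads. It was 38 with no filter on low counts, 97 with DESeq2, 2 with limma-voom, 1 with only the MG and AG libraries in the fit, 1 with the replicate block and 11 at an adjusted p below 0.10, and between 0 and 130 when each library was left out. The 7 genes called without AG 1 became 185 with no filter, 76 with DESeq2, 12 with limma-voom, 20 with only the MG and AG libraries, 3 with the replicate block and 13 at an adjusted p below 0.10. Leaving out a further library gave between 2 (MG 3) and 24 (AG 3). The 1 gene called by intron reads became 15 with library totals only, 427 with no filter, 35 with DESeq2, 0 with only the MG and AG libraries and 0 with the replicate block, and between 0 and 173 (AG 3) when each library was left out. The cause of these shifts was not tested.

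Among the 32 named genes with all libraries, the direction was kept in all alternatives for all but 3. The log2 fold change of Cdkn1a (0.04) was -0.24 with limma-voom and -0.050 with the replicate block, and with a library left out it ranged from -0.99 (without MG 3) to 1.00 (without AG 3), with -0.29 and -0.26 between. That of Pck1 (-0.06) turned to 0.039 (without MG 1), 0.019, 0.013 and 0.044 (without AG 2). That of Cyp7a1 (-0.93) was 0.67 without AG 3 and at the lowest -1.47 without MG 1. Libraries of the same number did not deviate together: the correlations were -0.09, -0.28 and 0.15, so the numbers do not pair them. With 3 libraries a group, genes near the level of 3 reads (up to 0.473 CPM) cannot show a fall.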
